A study of Homo sapiens with 6 samples.

Results

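Nascent RNA was measured in A375 human melanoma cells for a set of protein-coding nuclear genes whose annotated exons merge into 1 block over all transcripts. A gene entered the set when it had at least 10 reads in each of the 6 libraries and when its symbol did not start with that of a histone, olfactory receptor, ZNF, heat shock, DNAJ, IER, JUN, RAB, RRAG, DDX, RPL, RPS or EIF gene. Of 58243 counted genes, 1061 were protein-coding nuclear genes with 1 merged exon, 300 of them belonged to the families left out, and 294 of the remaining 761 reached the read minimum. The other 467 had under 10 reads in at least 1 library, and 269 of these had no read anywhere. The read minimum was the only measured value in this rule, and a gene that was silent in 1 group could not enter. Of the 467, 49 passed the filter on low counts, with 1 lower and 2 higher in PRL3 cells. All 294 passed that filter.

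The cells were stable transfectants of 2 kinds. EV cells carried an empty vector (libraries B1, B2 and B3), and PRL3 cells carried a plasmid for human PRL3, a phosphatase linked to metastasis and encoded by PTP4A3 (libraries B9, B10 and B11). Both were grown in medium with Hygromycin B. A 20 min pulse of 500 µM 4-thiouridine (4sU), a uridine analogue, marked newly made RNA, which was then biotinylated and purified for sequencing. The labels do not say whether either line was a single clone or whether the 3 libraries of a group came from separate cultures, so the p-values measure the spread between these libraries, which may be technical. In bulk RNA of this kind, less RNA per cell and fewer cells making it cannot be told apart.

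Genes without introns make mRNA that needs no splicing, and their pre-mRNA and mRNA have the same sequence. Many arose when a spliced mRNA was copied back into the genome. Others are single-exon members of families such as the Frizzled receptors, the C/EBP and SOX transcription factors and the beta-protocadherins. For a gene with introns, 4sU reads fall partly in introns and are not counted on exons, whereas for a gene without introns every read of its transcript can be counted.

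The annotation went against the name "intronless" for some members. In 201 of the 294 genes every annotated transcript had a single exon, whereas 93 also had a spliced transcript whose intron was covered by an exon of another transcript, among them FAU, TRMT112 and GPX1. The set is therefore called single-merged-exon genes below, and both kinds are given separately where they differed. Merged exons were 492 to 16618 bases long, with a median of 2582 bases.

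Each library had 36532207 to 57952035 reads assigned to genes. PTP4A3 rose from 217 ± 59.4 normalized counts in EV libraries to 24387 ± 3796 in PRL3 libraries (SD, n = 3 each), a log2 fold change of 6.80 ± 0.25 (SE, edgeR adjusted p = 1.1e-08), and the groups did not overlap. With 3 libraries in each group, an exact permutation test (two-sided) cannot give a p below 0.1, which PTP4A3 reached. Uniquely aligned reads outside annotated exons of the expected strand made up 30.2%, 28.7% and 41.1% in EV libraries and 69.1%, 62.8% and 66.9% in PRL3 libraries. Of 8 melanocyte-lineage markers, SOX10, MITF, S100B and PMEL were counted in every library, and the other 4 (TYR, MLANA, TYRP1 and DCT) had at most 20 reads in any. The summed level of the 8 lay between 23486 and 32801 normalized counts in EV libraries and between 13532 and 16937 in PRL3 libraries. SOX10 and S100B fell by 0.85 and 1.38 on the log2 scale and MITF and PMEL had 0.36 and -0.33 without passing the test, while NGFR and AXL, markers of undifferentiated melanoma, fell by 1.69 and 0.40. The summed level of the epithelial markers, nearly all of it KRT18, lay between 31398 and 41558 normalized counts in EV libraries and between 9150 and 12827 in PRL3 libraries, and the part of either marker list in the results was not tested.

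In PRL3 cells, 101 of the 294 single-merged-exon genes were lower (34.4%) and 49 were higher (16.7%) than in EV, with edgeR adjusted p-values below 0.05, and 144 did not pass the test. Over all 23884 genes tested, 22.7% were lower and 20.0% were higher, and over the protein-coding genes among them 31.6% and 15.2%. Among 12910 protein-coding genes with more than 1 merged exon and at least 10 reads in each library, 33.9% were lower and 15.8% were higher, close to the shares among the single-merged-exon genes. The median log2 fold change of the 294 genes was -0.27 (quartiles -0.89 and 0.43), beside 0.11 over all genes tested and -0.17 over those multi-exon genes. The EV and PRL3 libraries did not overlap for 186 of the 294, or 63.3%, against 56.3% of all genes tested.

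How the libraries are scaled set the level of these folds, because the median of all genes moved from -0.36 with all uniquely aligned reads as the library to 0.60 with library size alone. Relative to that median, the single-merged-exon genes lay 0.39 lower with TMM, RLE, upper-quartile, library-size and uniquely-aligned scaling, and 0.40 lower with factors from the members themselves. A scaling shifts every gene nearly alike, so this gap had to stay about the same and its constancy is no evidence. It did depend on the genes compared, and was 0.12 when protein-coding genes alone were fitted. The split of calls moved with the scaling. It was 62 lower and 103 higher with library size alone, 152 lower and 24 higher with all uniquely aligned reads, 87 lower and 74 higher with upper-quartile scaling, and 78 lower and 81 higher with factors from the members.

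Where a gene lay relative to its neighbours went with how it changed. Of 101 isolated genes, which overlapped no other gene and had no gene of the same strand ending within 5 kb upstream, 47 were lower and 11 were higher, with a median log2 fold change of -0.60. Without PRL3 library B10 or B11, the number of higher isolated genes was 6 or 7. Of 87 that overlapped a gene on the opposite strand only, 35 were lower and 6 were higher (median -0.40). The 38 genes inside an intron of another gene on the same strand went the other way, with 2 lower, 19 higher and a median of 0.71. Without B9 or B10 1 of them was lower, and without B11 0 were lower. In the 38 that overlapped a same-strand exon, 9 were lower and 6 were higher (median -0.06). Reads that fit exons of more than 1 gene were set apart as ambiguous, so these genes may have been counted over only part of their length. PABPC3 and YY2, described below, are among them. Of 30 genes with an upstream neighbour 8 were lower and 7 were higher (median 0.07). No test of the difference between these classes was made, since their members are genes and not replicates.

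**Figure D1:**
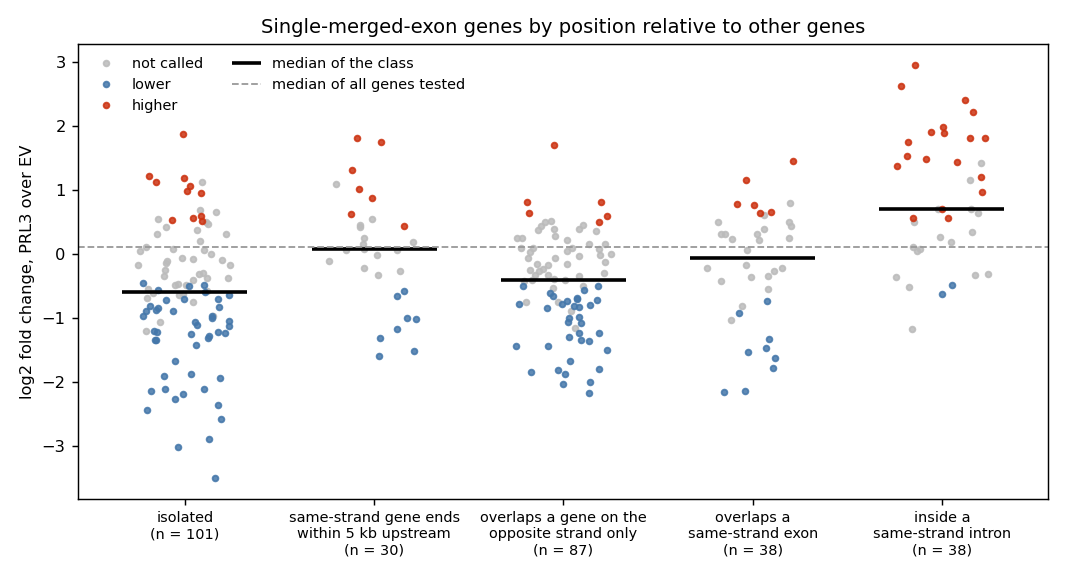
Log2 fold changes (PRL3 over EV, y axis) of the 294 single-merged-exon genes, 1 point per gene, by position relative to other genes (x axis), with lower, higher and uncalled genes coloured. Black bars are class medians, -0.60 for isolated genes and 0.71 for genes inside a same-strand intron, and the dashed line is the median of all genes tested, 0.11.

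Among multi-exon genes classed in the same way, the isolated ones had a median of -0.32 (2829 genes, 38.6% lower and 12.5% higher), and the isolated single-merged-exon genes (46.5% lower and 10.9% higher) lay further down. The other classes did not follow the same order in both sets. Multi-exon genes with an upstream neighbour had -0.50 (47.4% lower) where the single-merged-exon ones had 0.07, and those with opposite-strand overlap only had -0.21. Multi-exon genes that overlapped any other gene on the same strand had -0.01, and the 76 single-merged-exon ones had 0.33. In this last class a multi-exon gene can itself hold the other gene, so the sets are not alike there. The 72 isolated genes without any spliced transcript had a median of -0.70, with 35 lower and 8 higher, and the 29 isolated genes with one had -0.37, with 12 lower and 3 higher. By number of merged exons, multi-exon genes had medians of -0.40 for 2 exons, -0.37 for 3 to 4, -0.32 for 5 to 9, -0.17 for 10 to 19 and 0.02 for 20 or more.

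Short isolated genes fell most often. In the shortest tercile of isolated genes (690 to 1974 bases), 24 of 34 were lower and 1 was higher, with a median log2 fold change of -1.05. In the middle tercile (2013 to 2951 bases) 17 of 33 were lower and 3 were higher (median -0.63), and in the longest tercile (3024 to 8089 bases) 6 of 34 were lower and 7 were higher (median -0.11). Across the 101 isolated genes the log2 fold change rose with merged exon length (Spearman rho 0.49, a description over genes that share the 6 libraries), and across the 2829 isolated multi-exon genes rho was 0.36. Inside same-strand introns the relation ran the other way, with rho -0.55 over 38 genes, and 9 of the 13 shortest genes there were higher (median 1.48) against 5 of the 13 longest (median 0.26). Bitter taste receptor genes such as TAS2R10, TAS2R46 and TAS2R3 were among the shortest, and most of that family lies in 1 cluster. These genes are not independent of each other, and the relation without them was not tested.

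**Figure D2:**
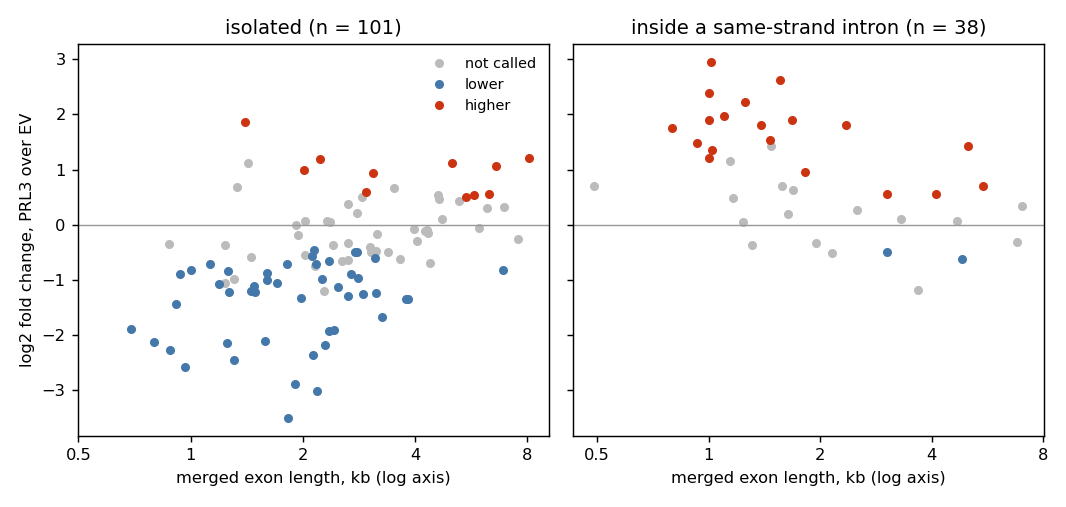
Log2 fold change (PRL3 over EV, y axis) against merged exon length in kb (x axis, log scale), 1 point per gene, for 101 isolated genes (left) and 38 genes inside a same-strand intron (right). Isolated genes under 2 kb lie mostly below 0, and genes under 2 kb inside introns mostly above.

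The 8 genes that fell most were all isolated, and none of them had a spliced transcript. TMEM158 (ENSG00000249992, chr3:45224466-45226287, minus strand of GRCh38), which encodes a membrane protein known as a target of Ras signalling, had 586, 875 and 579 normalized counts in EV libraries and 48.4, 76.6 and 53.6 in PRL3 libraries. Every PRL3 library lay far below every EV library, 11.3-fold on average (log2 fold change -3.50 ± 0.28 SE, edgeR adjusted p = 7.4e-06). NDN (ENSG00000182636, chr15:23685400-23687305, minus strand), an imprinted gene for the growth suppressor necdin of the MAGE family, had 708, 833 and 735 counts against 89.6, 118 and 97.5, and its replicates were close together in both groups (7.42-fold lower, adjusted p = 6e-06 in edgeR).

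CCDC85B (ENSG00000175602, chr11:65890673-65891635, plus strand), a coiled-coil protein gene, had high levels, with 9532, 16414 and 10721 normalized counts in EV libraries and 1279, 2807 and 2031 in PRL3 libraries. B2 was the highest EV library and B10 the highest PRL3 library, and the groups stayed apart by 5.99-fold (log2 fold change -2.58 ± 0.27 SE, edgeR adjusted p = 1.8e-05). CITED4 (ENSG00000179862, chr1:40861054-40862363, minus strand), a transcriptional co-activator that binds CBP and p300, had 2408, 4455 and 3307 counts against 584, 702 and 579, or 5.45-fold lower (adjusted p = 9.6e-06 in edgeR). FNDC10, SETSIP and KCNF1 fell by 2.37, 2.27 and 2.18 on the log2 scale, from lower levels. KCNF1, a modulatory potassium channel subunit, went from 96.2, 86.6 and 85.5 counts to 17.5, 17.9 and 23.6. UQCRHL, the remaining one of the 8, is a copy of a respiratory chain gene and is described with the other copies.

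**Figure D3:**
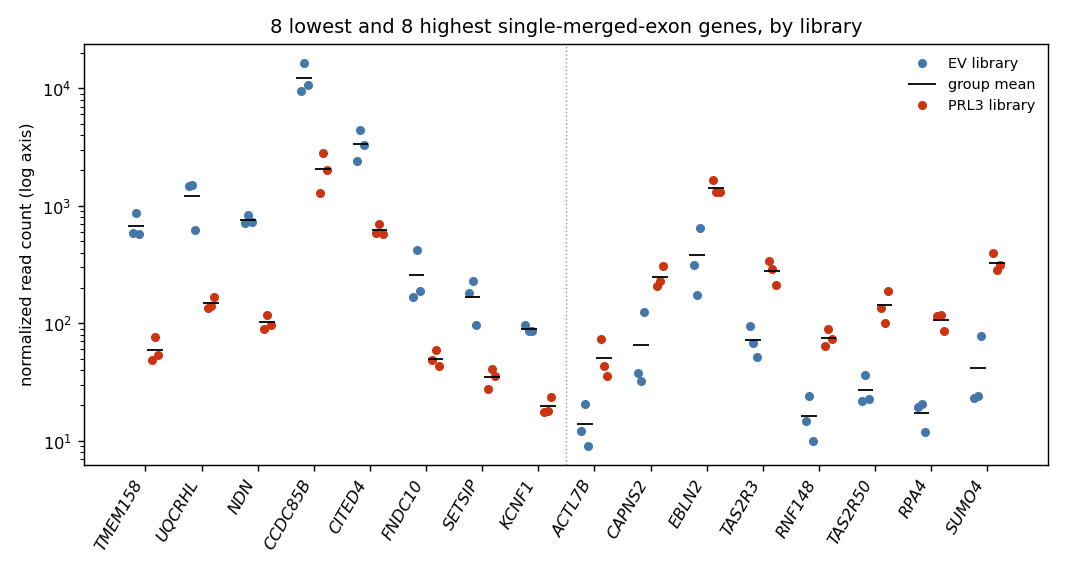
Normalized read counts (y axis, log scale) of the 8 lowest and the 8 highest called single-merged-exon genes (x axis) in each EV and PRL3 library, with the mean of each group as a bar. The groups do not overlap for any of the 16 genes, and EV library B3 stands above B1 and B2 for SUMO4, CAPNS2 and EBLN2.

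Isolated genes that rose were fewer. EPM2AIP1, a partner of laforin with a merged exon of 8089 bases, had 4599, 3152 and 5282 normalized counts in EV libraries and 9256, 10341 and 10749.7 in PRL3 libraries (2.33-fold higher, log2 fold change 1.22 ± 0.19 SE, edgeR adjusted p = 0.000196). The X-linked zinc finger genes ZXDA and ZXDB, which cooperate in transcription of MHC class II genes, rose 2.18-fold and 1.42-fold (adjusted p = 0.00154 and 0.0428 in edgeR). Their promoter windows were nearly the same in sequence, and whether reads of either gene were counted on the other was not tested. ZXDB no longer passed the test without any 1 of B2, B9, B10 and B11 (adjusted p of 0.113, 0.116, 0.107 and 0.0889 in edgeR). ACTL7B, a testis actin-like protein gene, had only 10 to 72 reads per library and rose from 13.9 ± 5.87 to 50.9 ± 20.5 normalized counts (SD, n = 3 each). It did not pass without B9 (adjusted p = 0.18 in edgeR) or without B10 (adjusted p = 0.0661 in edgeR).

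The most strongly read genes of the set per kb were ones with spliced transcripts. TRMT112 (an activator of methyltransferases that act on tRNA, rRNA and release factors), FAU (whose product is processed to a ribosomal protein), GPX1 (a glutathione peroxidase), MT2A (a metallothionein) and ID1 (an inhibitor of bHLH transcription factors) were the 5 with the highest mean count per kb of merged exon, between 9389 and 13874. TRMT112 had 22528, 30633 and 21721 normalized counts in EV libraries and 4105, 7115 and 5468 in PRL3 libraries, 4.49-fold lower (edgeR adjusted p = 1.3e-05). FAU had 21441, 29690.0 and 20008 counts against 4365, 6498 and 5205, 4.43-fold lower (adjusted p = 1e-05 in edgeR). GPX1 and MT2A fell 3.46-fold and 2.70-fold. ID1 had 18697 ± 3371 counts in EV libraries and 14430 ± 1659 in PRL3 libraries (SD, n = 3 each), and its libraries overlapped (adjusted p = 0.0924 in edgeR). Without B1, ID1 passed at -0.51.

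Over all 93 genes with a spliced transcript, 41 were lower and 7 were higher (median log2 fold change -0.41), and over the 201 without one 60 were lower and 42 were higher (median -0.16). Position differed between them, as 35 of the 38 genes inside same-strand introns had no spliced transcript (18 higher and 1 lower). Among isolated genes the order was reversed, with medians of -0.37 with a spliced transcript and -0.70 without. With opposite-strand overlap only, the medians were -0.74 with one and -0.18 without. NDUFB11, UQCRQ and UQCRB, which encode subunits of the respiratory chain and have a spliced transcript, fell by 2.04, 1.81 and 1.08 on the log2 scale. CHMP2A, an ESCRT-III subunit in membrane scission, fell 3.01-fold (edgeR adjusted p = 2.2e-05). SF3B5, a spliceosome subunit whose 690-base gene has a single exon in every transcript (named after its values were seen), fell from 6027 ± 1031 to 1636 ± 560.0 normalized counts (SD, n = 3 each).

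Genes inside an intron of a same-strand gene made up the other end of the set. The 2 highest, SUMO4 and RPA4, are both of this kind. SUMO4 (ENSG00000177688, chr6:149400262-149401278, plus strand), a ubiquitin-like modifier gene in an intron of TAB2, had 23.1, 24.1 and 77.3 normalized counts in EV libraries and 393, 283 and 311 in PRL3 libraries. EV library B3 was the highest of its group and still lay below all PRL3 libraries (7.75-fold higher, log2 fold change 2.95 ± 0.43 SE, edgeR adjusted p = 0.00014). Without B3 the log2 fold change of SUMO4 was 3.79. RPA4 (ENSG00000204086, chrX:96883908-96885467, plus strand), an alternative subunit of replication protein A in an intron of DIAPH2, had 19.5, 20.5 and 11.8 counts against 114, 118 and 85.8 (6.17-fold higher, adjusted p = 0.000461 in edgeR).

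Each inner gene was set beside the gene that holds it. Of the 38 genes inside introns, 29 had a protein-coding host that was tested, 20 hosts in all, and the fold change of the inner gene was above that of its host in 25 of 29. The median log2 fold change of these 29 genes was 1.20 (17 higher and 2 lower), whereas the 20 hosts had a median of -0.02, with 1 higher and 6 lower. Some hosts hold several inner genes, and some had few reads. PRH1, which holds several bitter taste receptor genes, had 42.3 ± 41.8 normalized counts in EV libraries (SD) and a log2 fold change of 0.59 ± 0.62 (SE). PIP5K1B and KCNJ10 had EV means of 5.15 and 18.7. Host values are counts on exons, not on the intron that holds the inner gene. When each host counted once, with the mean of its inner genes, the median of the inner genes was 0.84. TAB2 had 0.30 ± 0.18 (SE) and DIAPH2 0.35 ± 0.16, and neither passed the test. Of 4 tested hosts that are not protein-coding, MIR31HG and ENSG00000254409 rose by 1.05 and 1.36 on the log2 scale (adjusted p = 0.00774 and 0.0033 in edgeR), LINC01278 fell by 0.71 and SOX2-OT did not pass the test. ATP5MGL rose by 1.75 where its host CYB5R3 fell by 0.94, TAS2R3 rose by 1.98 where SSBP1 fell by 0.70, and EID3 rose by 1.53 where TXNRD1 fell by 0.47. Reads from an intron of the host that span the inner gene are counted on the inner gene, and such reads cannot be told apart from its own transcript in counts per gene.

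**Figure D4:**
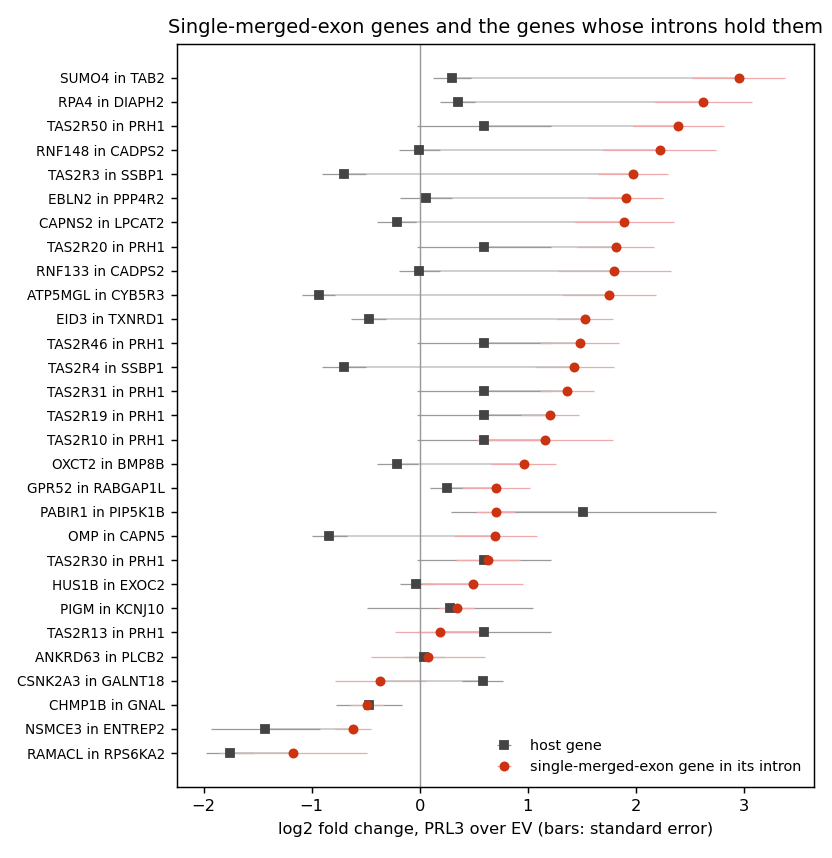
Log2 fold changes (PRL3 over EV, x axis) with standard errors of 29 single-merged-exon genes inside a same-strand intron (circles) and of their protein-coding hosts (squares), 1 pair per line. The inner gene lies to the right of its host in 25 of the 29 pairs, and 8 pairs share PRH1 as the host.

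Set against all uniquely aligned reads, the summed reads on the 38 genes inside introns were 176, 165 and 172 CPM in EV libraries and 158, 174 and 151 CPM in PRL3 libraries, so the groups overlapped. The isolated genes had 2492, 2906 and 2482 CPM in EV libraries and 1068, 1441 and 1176 in PRL3 libraries, with every PRL3 library below every EV library. As a share of reads counted on genes, the genes inside introns took 0.0270%, 0.0248% and 0.0315% in EV libraries and 0.0540%, 0.0501% and 0.0491% in PRL3 libraries. The library with the largest share of reads outside exons among the EV libraries, B3, was also the highest EV library for 17 of the 38 genes, against 9 for B1 and 12 for B2. Among all 294 genes B3 was the highest for 111, B1 for 67 and B2 for 116, and among isolated genes B3 was the highest for 30 of 101. Whether the intron reads account for the rise of these genes was not tested.

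Bitter taste receptors, G-protein-coupled receptors best known from taste cells, formed the largest family among them. Of 11 TAS2R genes in the set, 8 were higher and 0 were lower, median log2 fold change 1.36, and 10 of the 11 lay in a same-strand intron. TAS2R50 had 21.9, 36.1 and 22.7 normalized counts in EV libraries and 136, 101 and 189 in PRL3 libraries (5.26-fold higher, edgeR adjusted p = 0.00051). TAS2R3 had 95.0, 67.4 and 51.8 counts against 339, 289 and 212 (3.94-fold higher, adjusted p = 0.000323 in edgeR). TAS2R13 had 93.8 ± 45.4 and 108 ± 37.2 counts with overlapping libraries, and it was below 0 when all uniquely aligned reads set the library size. Most of these genes share 1 cluster and the host genes PRH1 and TAS2R14, so they are not independent of each other. Without the TAS2R genes, 12 of 28 genes inside introns were higher and 2 were lower (median 0.55).

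RNF133 and RNF148, ubiquitin ligase genes known from testis, lie in introns of CADPS2 and rose by 1.80 and 2.22 on the log2 scale, where CADPS2 had -0.01 ± 0.19 (SE). Without B11, RNF133 did not pass (adjusted p = 0.094 in edgeR). They had 10 to 119 reads per library and were, with ACTL7B, the 3 members nearest to the minimum of 10 reads. The genes just outside it were REP15, FOXD4L6 and MAP10, each with 9 reads in its lowest library. EBLN2, a gene derived from an ancient bornavirus and inside PPP4R2, had 315, 176 and 646 normalized counts in EV libraries and 1673, 1306 and 1309 in PRL3 libraries (3.75-fold higher, edgeR adjusted p = 0.000708). CAPNS2, a calpain small subunit gene inside LPCAT2, had 37.8, 32.5 and 125 counts against 206, 228 and 304. In both, B3 was the EV library nearest to the PRL3 libraries, and without it EBLN2 had a log2 fold change of 2.54 in place of 1.91 and CAPNS2 2.80 in place of 1.89. MARS2, a mitochondrial methionyl-tRNA synthetase gene inside a noncoding gene with hardly a read, rose less (1.47-fold, adjusted p = 0.0206 in edgeR), and did not pass without B2 (0.47 on the log2 scale) or without B10 (0.41). NSMCE3 and CHMP1B were the 2 genes inside introns that fell.

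A list of 27 members was drawn up after the data were seen, each a single-merged-exon relative of a multi-exon gene, called a copy here. Identity of the aligned coding sequence ran from 70.0% to 99.7%, so some are close copies and others distant ones. The 10 isolated copies had a median log2 fold change of -0.91 (6 lower, 0 higher) beside -0.98 for their relatives, and the 8 copies inside introns had a median of 1.36 (5 higher, 0 lower) beside -1.04 for theirs. UQCRHL (chr1:15807169-15809348, minus strand) copies UQCRH, the hinge protein of respiratory complex III, and its coding sequence differs from that of UQCRH at 4 of 273 bases. All 4 lie in the stretch of 90 coding bases shown here, with differing bases in capitals, and so many reads fit both genes equally well.
UQCRHL (coding bases 144 to 233): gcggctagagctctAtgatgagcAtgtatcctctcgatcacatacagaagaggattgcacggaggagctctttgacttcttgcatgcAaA
UQCRH (coding bases 144 to 233): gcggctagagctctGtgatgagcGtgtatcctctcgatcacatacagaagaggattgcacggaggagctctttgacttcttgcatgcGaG

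UQCRHL had 1476, 1503 and 627 normalized counts in EV libraries and 136, 141 and 167 in PRL3 libraries. The PRL3 libraries were tightly grouped and all lay below the lowest EV library. The fitted difference between the groups was 8.11-fold (log2 fold change -3.02 ± 0.30 SE, edgeR adjusted p = 1.4e-05). UQCRH went from 30396 ± 5021 to 7390 ± 1303 normalized counts (SD, n = 3 each), a log2 fold change of -2.04 ± 0.19 (SE). SETSIP, a copy of the chromatin regulator SET with 95.6% identity over 879 bases, had -2.27 ± 0.41 where SET had -1.35 ± 0.19. Since a read from the relative can be counted on a copy this close, the counts of such copies are uncertain.

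SUMO4 differs from SUMO2, a modifier that is attached to many nuclear proteins, at 20 of 285 coding bases. SUMO2 fell from 6085 ± 835 to 2863 ± 226 normalized counts (SD, n = 3 each), a log2 fold change of -1.09 ± 0.16 (SE), while SUMO4 rose by 2.95. ATP5MGL and ATP5MG (94.0% identity, 1.75 and -1.73) parted in the same way. So did RPA4 and RPA2 (2.62 and -0.92) and CAPNS2 and CAPNS1 (1.89 and -1.86), which are more distant, with 70.0% identity over 297 of 783 coding bases and 71.9% over 604 of 744. All 8 of these genes passed the test.

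**Figure D5:**
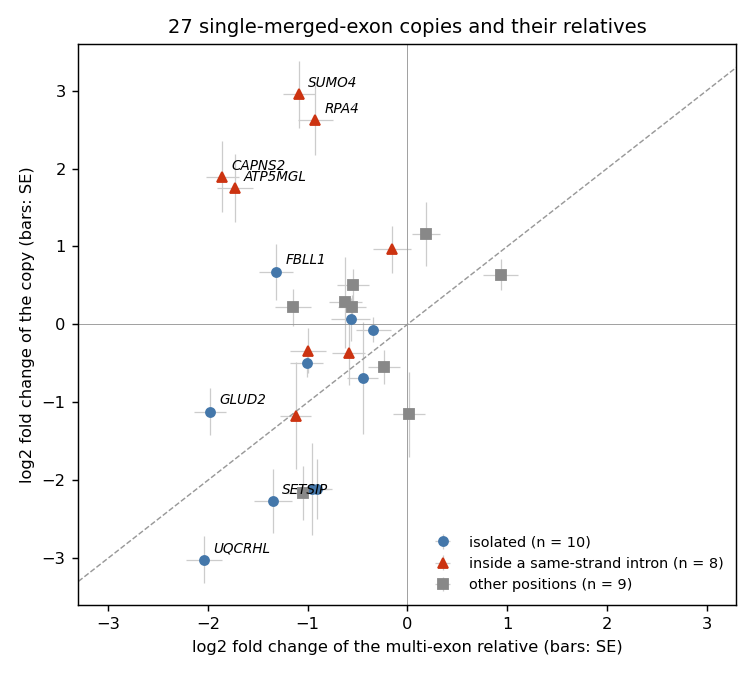
Log2 fold change (PRL3 over EV) of 27 single-merged-exon copies (y axis) against that of the multi-exon relative of each (x axis), with standard errors and a dashed line of equal change. The isolated copies UQCRHL and SETSIP lie below the line, and SUMO4, RPA4, CAPNS2 and ATP5MGL, inside introns, lie far above it.

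Grouped by role, 9 of 31 transcription factors and DNA-binding proteins were lower (29.0%) and 9 were higher (29.0%). Over all genes tested 22.7% were lower and 20.0% higher, and over protein-coding genes 31.6% and 15.2%. The counts of every role list below stand beside these same shares. The 3 C/EBP genes of the set, basic leucine zipper factors of differentiation and inflammation, were all lower under every scaling tried. CEBPA had 407, 567 and 546 normalized counts in EV libraries and 114, 209.8 and 152 in PRL3 libraries (3.18-fold lower, edgeR adjusted p = 0.00029). CEBPB fell 2.71-fold and CEBPD 4.43-fold, with no overlap of the groups for either gene. SOX12 fell by 1.00 on the log2 scale, whereas SOX4 had 0.15 ± 0.17 (SE) and did not pass the test. POU3F2 (BRN2), a regulator of melanoma cell invasion, had 1816, 1615 and 1980.5 counts against 2377, 2675 and 2269, 1.35-fold higher (adjusted p = 0.0346 in edgeR), and turned to -0.04 when all uniquely aligned reads set the library size. Without B2, B9, B10 or B11 it had 0.38, 0.46, 0.37 and 0.50 and did not pass. PURB, a purine-rich element binding protein, rose by 0.77, YY2 by 1.16 and FOXD4L4 by 1.75 on the log2 scale. YY2 did not pass without B2, B9 or B10 (0.86, 0.85 and 1.27), and FOXD4L4 has near-identical relatives, so its counts are uncertain. FOXC1 and FOXD2 had -0.11 ± 0.18 and -0.32 ± 0.24 (SE), and without B1 FOXD2 passed at -0.56.

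Among 21 G-protein-coupled, Frizzled and other surface receptors, 3 were lower (14.3%) and 10 were higher (47.6%), and 8 of the 10 were TAS2R genes. The 3 lower ones were Frizzled receptors for Wnt ligands. FZD9 had 129, 429.5 and 330.1 normalized counts in EV libraries and 52.5, 107 and 71.8 in PRL3 libraries, a fall of 1.93 on the log2 scale with the lowest EV library close to the highest PRL3 library (edgeR adjusted p = 0.00233). FZD2 fell by 1.34 and FZD1 by 0.83. FZD8 (-0.35 ± 0.20, SE) and FZD7 (-0.22 ± 0.16) did not pass the test, although FZD8 did without B1 (-0.53), and both were above 0 with library size alone, as FZD7 was with factors from the members.

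Of 20 ubiquitin ligase subunits, BTB-Kelch, F-box and MAGE proteins, 7 were lower (35.0%) and 7 were higher (35.0%). The MAGE family, which pairs with RING ubiquitin ligases, was mostly lower, with NDN, MAGEH1, MAGEF1 and NSMCE3 lower and MAGEE1 at -0.61 ± 0.30 (SE, edgeR adjusted p = 0.121), and all 5 stayed below 0 under each scaling tried. MAGEH1 had 174, 134 and 166 normalized counts in EV libraries and 48.4, 71.4 and 45.0 in PRL3 libraries. The higher genes of this list included RNF148 and RNF133. In edgeR, 0 of 10 small GTPases, kinases, phosphatases and signalling adaptors passed the test, 0 passed in DESeq2 and 1 (PPP1R3D) in limma-voom, and 1 (PPP1R3D) had an unadjusted p under 0.05, and their median was 0.02. ARF6, a GTPase of membrane traffic, had 6631, 6631 and 7115 counts against 5582, 7396 and 6271, RHOB had a log2 fold change of 0.05 ± 0.17 (SE) and KCTD12 had 0.31 ± 0.25. IRS4 (-0.04 ± 0.47), FAM43A (-0.17 ± 0.24) and PPP1R3D (0.49 ± 0.19) belonged to the same list, and PPP1R3D passed without B2 (0.60) or without B9 (0.63). NOG, the gene of a secreted protein, was also counted in that list.

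Beta-protocadherins, neighbouring cell adhesion genes of 1 cluster on chromosome 5, changed in both directions. Of 15, PCDHB5, PCDHB6 and PCDHB2 were lower and PCDHB3 was higher, and 11 did not pass the test. PCDHB3 had 69.4, 55.3 and 94.6 normalized counts in EV libraries and 231, 254 and 228 in PRL3 libraries, 3.24-fold higher with clear separation (edgeR adjusted p = 0.000635). PCDHB5 had 1759.8, 1737 and 1612 counts against 897, 1028 and 936, 1.79-fold lower (adjusted p = 0.000785 in edgeR). PCDHB6 fell by 0.72 and PCDHB9 had 0.50 ± 0.27 (SE) and passed at 0.75 without B3. The number of protocadherins below 0 went from 3 of 15 with library size alone to 13 of 15 with all uniquely aligned reads, so no direction holds for the family.

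The remaining role lists were small. Of 12 leucine-rich-repeat and other membrane proteins, 4 were lower, among them TMEM158 and TMEM271 (log2 fold change -1.90 ± 0.53 SE), and 2 were higher, among them SLC35G5 (1.81 ± 0.47), while SLC10A5 had 1.12 ± 0.43 without passing the test. TMEM271 did not pass without B10 (-1.65), nor SLC35G5 without B9 (1.61), and SLC10A5 passed without B1 (1.44). Of 9 proteins of RNA processing, translation and mitochondria 5 were lower and 1 was higher. PABPC3, a copy of the gene for poly(A)-binding protein 1, fell by 2.16 and CSTF2T, a testis form of a 3' end processing factor, had 0.22 ± 0.16 (SE). The 3 Golgi enzyme genes were CHST14, a dermatan sulfotransferase, and B3GALT6, a galactosyltransferase of the glycosaminoglycan linker, which fell by 1.00 and 0.97, and GALNT4, which had 0.44 ± 0.38. The ion channel list, which also took in claudin genes by symbol, held KCNF1 and the claudin gene CLDN23 (-0.75 ± 0.55). Of the 173 genes in no list, 67 were lower and 19 were higher, among them EXOC8, an exocyst subunit (0.82 ± 0.15). With all uniquely aligned reads as the library, EXOC8, PURB, YY2, ZXDB, MARS2 and ACTL7B no longer passed the test, and PCDHB5 and PCDHB6 did not with library size alone.

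The 4 genes with fold changes nearest to 0 were FREY1, PSPN, NOG and SMIM10L1. SMIM10L1 had 2208 ± 542 normalized counts in EV libraries and 2212 ± 204 in PRL3 libraries (SD, n = 3 each), and NOG, a secreted BMP antagonist, had 73.0 ± 31.0 and 72.9 ± 21.1. Over the whole set, lower genes were more frequent at high levels. Among the 98 genes with the highest mean count (1478 to 21725 normalized counts) 56 were lower and 10 were higher, and among the 98 with the lowest (21.2 to 229.7) 11 were lower and 19 were higher. The test called fewer of the rare genes, with 68 of the lowest 98 and 32 of the highest 98 not passing. Spearman rho between log2 fold change and mean count was -0.25 over all 294 genes. It was -0.04 over the 101 isolated genes and -0.18 over the 38 inside introns.

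Promoter sequence was compared between the lower genes, the higher genes and the genes inside introns. RefSeq promoter windows on GRCh38.p14, from 250 bases before to 50 bases after the start, were found for 228 of the 294 genes by symbol. The core GC box, GGGCGG on either strand, was in 62.3% of these windows, in 70.9% of 79 windows of lower genes, in 17 of 34 windows of higher genes and in 38.5% of 26 windows of genes inside introns, against 44.6% of all 27305 windows of this length. The median GC content was 65.7% for lower genes, 57.7% for higher genes and 47.3% for genes inside introns, beside 58.3% for all. The CCAAT box (CCAAT) was in 32.9% of windows of lower genes, 29.4% of those of higher genes and 13 of 26 of those of genes inside introns, against 35.7% of all, and the TATA box (TATAAA) in 7.59%, 17.6% and 26.9% of the same sets against 12.0%. The cAMP response element (TGACGTCA), the E-box (CACGTG) and the AP-1 site (TGACTCA) were in 6.33%, 12.7% and 3.80% of windows of lower genes, against 1.98%, 7.43% and 4.92% of all. In the same order they were in 5.88%, 5.88% and 8.82% of windows of higher genes. For genes inside introns the shares were 3.85%, 7.69% and 7.69%. No motif contains another, and a match marks letters only.

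Promoter windows are shown for CITED4 and NDN, isolated genes that fell, and for SUMO4 and TAS2R50, which rose inside introns. Capitals mark GC boxes in CITED4 and NDN, a CCAAT box in CITED4 and both CCAAT boxes in SUMO4, on either strand, and TAS2R50 has no match to the motifs searched.
CITED4 (chr1:40862314-40862613, minus strand): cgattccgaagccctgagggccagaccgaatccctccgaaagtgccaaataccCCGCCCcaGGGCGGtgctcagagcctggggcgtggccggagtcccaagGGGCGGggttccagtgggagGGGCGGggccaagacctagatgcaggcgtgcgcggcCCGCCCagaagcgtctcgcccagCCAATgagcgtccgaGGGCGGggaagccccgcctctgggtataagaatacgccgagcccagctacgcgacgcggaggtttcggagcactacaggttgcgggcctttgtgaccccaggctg
NDN (chr15:23687256-23687555, minus strand): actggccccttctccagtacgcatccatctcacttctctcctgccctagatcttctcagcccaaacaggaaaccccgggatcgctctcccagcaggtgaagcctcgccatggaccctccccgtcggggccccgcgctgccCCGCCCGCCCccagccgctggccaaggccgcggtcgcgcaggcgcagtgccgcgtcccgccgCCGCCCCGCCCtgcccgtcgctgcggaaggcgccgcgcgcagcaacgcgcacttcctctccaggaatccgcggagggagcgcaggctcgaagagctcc
SUMO4 (chr6:149400012-149400311, plus strand): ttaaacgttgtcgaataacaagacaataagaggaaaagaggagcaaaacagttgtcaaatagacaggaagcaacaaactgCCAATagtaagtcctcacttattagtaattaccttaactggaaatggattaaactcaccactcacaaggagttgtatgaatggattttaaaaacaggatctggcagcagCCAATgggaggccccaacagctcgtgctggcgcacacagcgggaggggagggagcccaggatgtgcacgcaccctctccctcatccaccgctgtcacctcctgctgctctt
TAS2R50 (chr12:10986863-10987162, minus strand): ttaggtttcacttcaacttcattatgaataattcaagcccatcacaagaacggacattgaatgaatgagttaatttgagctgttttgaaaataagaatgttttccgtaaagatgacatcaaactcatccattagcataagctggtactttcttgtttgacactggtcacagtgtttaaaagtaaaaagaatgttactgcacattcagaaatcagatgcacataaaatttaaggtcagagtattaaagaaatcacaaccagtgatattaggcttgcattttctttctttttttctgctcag
The GC content of these windows was 68.3% for CITED4, 72.0% for NDN, 47.7% for SUMO4 and 32.7% for TAS2R50.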

How the data were processed

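Nascent RNA labelled with 4sU was sequenced from 3 EV and 3 PRL3 libraries. The authors aligned reads to GRCh38 with STAR 2.5.1b after FastQC 0.11.3 and deposited raw counts per gene made with HTSeq 0.6.1 in its reverse-strand setting against Ensembl 91, so reads in introns were not counted on a gene unless another gene's exon lay there. Exon structure and positions came from GENCODE 44 on the same build, in which 57532 of 58243 identifiers matched. The merged exon rule therefore used a later annotation than the counts.

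PRL3 was compared with EV by edgeR 4.0.16 (R 4.3.3) with TMM factors, filterByExpr and the quasi-likelihood test, and p-values were adjusted by the Benjamini-Hochberg method over all 23884 genes kept. The fit was run on simulated counts with few changed genes, as many rising as falling, and the same dispersion for all. Such counts hold no general shift between the groups, so the run could not check the scaling. Normalized counts are counts scaled by the TMM library size. Rows of HTSeq totals that name no gene were left out of library sizes and tests, and the share in no feature is given in the results. DESeq2 1.42.0, limma-voom (limma 3.58.1), other scalings, filters and memberships, and leaving out each library were alternatives. Groups came from the labels, which share no replicate numbers. Replicates of a group differed by more than counting error.

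The members and lists were chosen with earlier results of these data known. Genes named were the 8 lowest and 8 highest called without overlap, the 5 with the highest count per kb, the 4 nearest to 0, the 2 lowest and 2 highest of each role list and position class, a list of transcription and signalling genes, those nearest to the read minimum, and PTP4A3. SF3B5, EID3, ATP5MGL, CHMP1B, NSMCE3, UQCRQ, UQCRB, FZD1, TAS2R13, PCDHB2, MAGEF1, MAGEE1 and the relatives and hosts were named after their values were seen. Where an inner gene had several hosts, the first protein-coding one in the annotation was used. Precision is limited by 3 libraries a group, and for the rarest members by 10 reads. Some items are not reported here.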

Additional observations from a re-analysis of the deposited data

Results flagged for a closer look

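Reads outside the measurement of genes differed between the groups. Uniquely aligned reads outside annotated exons of the expected strand averaged 66.3% ± 3.18 over the PRL3 libraries, against 33.3% ± 6.75 over EV (SD over 3 libraries each). This share drew attention because it lies in data that the comparison of genes does not use and stands above the level in the control libraries. Its part in the changes of the single-merged-exon genes was not tested. With 3 libraries a group, single outlying values could not be checked.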

How the results depend on the processing

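No paired analysis was possible because the groups share no replicate numbers. Of the 294 genes, the main analysis called 101 lower and 49 higher. Upper-quartile scaling gave 74 higher and a median log2 fold change of -0.10. Library size alone gave 62 lower, 103 higher and a median turned to 0.21. All uniquely aligned reads gave 152 lower, 24 higher and -0.76. Factors from the members gave 81 higher and -0.029, and protein-coding genes alone 78 higher and -0.092. An adjusted p of 0.01 left 31 higher, and isolated members alone had 47 lower, 11 higher and -0.60. With at least 100 reads in each library 30 were higher, and with single-exon transcripts alone (chosen after seeing the data) 60 were lower, as these memberships hold 205 and 201 genes. For isolated genes, library size alone gave 31 lower, 26 higher and -0.11, all uniquely aligned reads 5 higher and -1.08, factors from the members 17 higher and -0.35, upper-quartile scaling -0.42, protein-coding genes alone -0.42, and an adjusted p of 0.01 6 higher. For genes inside introns, the median was 0.88 (upper quartile, 0 lower), 1.20 (library size, 0 lower), 0.24 (uniquely aligned reads, 5 lower), 0.98 (members' factors, 0 lower) and 0.89 (protein-coding genes, 1 lower), and 1 was lower at an adjusted p of 0.01. Apart from the scalings, which shift every gene alike, the cause was not tested. Leaving out 1 library at a time gave 82 to 106 lower, 34 to 57 higher and medians of -0.35 to -0.17 for all 294, 39 to 50, 6 to 12 and -0.67 to -0.51 for isolated genes, and 0 to 3, 16 to 21 and 0.70 to 0.98 for genes inside introns. The remaining counts of lower and higher genes under these memberships, and both counts under DESeq2, limma-voom, RLE, both filters on low counts, any gene passing the filter, the left-out families put back, and (chosen after seeing the data) without PCDHB and TAS2R genes or without copies, lay within 1.5 times of the main ones.

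Over the 68 named genes, 950 of the recomputed values kept direction and call, 27 lost the call, 39 gained it and 72 changed sign. All genes that changed sign were uncalled in the main analysis except POU3F2. With library size alone these were ARF6 (0.40), FAM43A (0.31), FOXC1 (0.37), FOXD2 (0.16), FREY1 (0.45), FZD7 (0.27), FZD8 (0.13), ID1 (0.11), IRS4 (0.42), NOG (0.46) and PSPN (0.46). With upper-quartile scaling they were ARF6 (0.093), FOXC1 (0.070), FREY1 (0.15), IRS4 (0.12), NOG (0.16) and PSPN (0.16). With factors from the members they were ARF6 (0.17), FAM43A (0.080), FOXC1 (0.15), FREY1 (0.22), FZD7 (0.030), IRS4 (0.24), NOG (0.25) and PSPN (0.24), and with protein-coding genes alone ARF6 (0.096), FAM43A (0.0050), FOXC1 (0.071), FREY1 (0.16), IRS4 (0.13), NOG (0.17) and PSPN (0.16). With all uniquely aligned reads they were CSTF2T (-0.25), GALNT4 (-0.0034), KCTD12 (-0.17), POU3F2 (-0.035), RHOB (-0.42), SMIM10L1 (-0.49) and SOX4 (-0.33). RLE and DESeq2 turned SMIM10L1 (-0.035 and -0.024), limma-voom IRS4 (0.21) and NOG (0.051), no filter FREY1 (0.013), NOG (0.024) and PSPN (0.017), and at least 10 counts in each library FREY1 (0.025), IRS4 (0.00042), NOG (0.037) and PSPN (0.030).
Leaving out 1 library at a time spanned ARF6 -0.19 to 0.018, FAM43A -0.47 to 0.023, FOXC1 -0.18 to 0.057, FREY1 -0.43 to 0.20, IRS4 -0.46 to 0.60, NOG -0.29 to 0.30, PSPN -0.18 to 0.17, RHOB -0.074 to 0.17 and SMIM10L1 -0.11 to 0.22.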
